A study of Homo sapiens with 24 samples.

Results

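The early growth response, immediate early response and Krüppel-like factor genes studied here were EGR1, IER2, IER3, IER5, KLF4, KLF5, KLF6, KLF9, KLF10 and KLF11, and their rows were taken from the count matrix by gene name. Of the 10 listed genes, 9 were found among the 18915 genes of the matrix, and 8 of these were expressed highly enough to be among the 12685 genes tested. KLF4 was not analysed here. KLF9 had 3 counts in all 24 libraries together, too few for a test.

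HepG2 cells, an established human hepatoma line that still makes liver secretory proteins, received fresh complete medium with serum and the compounds for 10 h. The 6 groups of 4 replicate cultures were vehicle (DMSO), 50 nM ISRIB, 20 uM nelfinavir (Nelf), 50 nM bortezomib (Btz), and 50 nM bortezomib with 20 uM nelfinavir (Btz+Nelf) or with 50 nM ISRIB (Btz+ISRIB). Bortezomib blocks the proteasome, nelfinavir lets phosphorylated eIF2α accumulate, and ISRIB makes cells insensitive to it, so the design asked how the response to proteasome inhibition changes when signalling through eIF2α is raised or relieved. RNA was read from the 3′ end of polyadenylated transcripts, where each transcript gives about 1 read regardless of its length, and levels are given as CPM, the counts relative to library size after TMM scaling, as mean ± SD over 4 libraries.

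Immediate early genes are switched on within minutes of a stimulus without new protein synthesis, and their transcripts are usually short-lived. All libraries were taken at 10 h, so the members' first response to the medium and the compounds was not measured. EGR1 encodes a zinc finger activator that is turned on through serum response factor, and KLF5, KLF6, KLF9, KLF10 and KLF11 encode zinc finger factors that bind GC-rich promoter elements. The IER genes are a collection without a shared fold: IER2 and IER5 are related nuclear proteins, and IER3 (IEX-1) is a small protein that modulates survival signalling.

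Total counts per library ran from 5154533 to 6943164. Mitochondrially encoded genes took 18 to 23.2% of the counts in the 12 libraries without bortezomib, 32.6 to 40.2% in Btz and Btz+ISRIB, and 24.9 to 29.6% in Btz+Nelf. Leaving these genes out gave the same number of members called in the comparisons with DMSO and with Btz below. Hepatocyte markers were abundant, with a summed level of 14600 to 17200 CPM without bortezomib, 11400 to 12100 CPM in Btz, 11100 to 12300 CPM in Btz+ISRIB and 7600 to 9480 CPM in Btz+Nelf, below every other library. The part of this difference in the members' levels in Btz+Nelf was not tested. Of the immune markers, CD68 stayed at or below 5.21 CPM and LYZ reached 434 CPM, and the summed level of the list was 337 to 419 CPM in DMSO and 74.5 to 125 CPM in Btz. PTPRC and CD3E were not analysed here, and the part of these markers in the results was not tested. The fibroblast markers with values, COL1A1, COL3A1 and PDGFRB, had at most 5 counts in any library.

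Bortezomib lowered EGR1 and IER2 and raised IER5, KLF5, KLF6 and KLF11. Adding nelfinavir to bortezomib raised EGR1, IER2, IER3, IER5, KLF5 and KLF11 by 2.32- to 3.18-fold over bortezomib alone, and lowered KLF6 to 0.523 of its bortezomib level. Adding ISRIB to bortezomib raised IER2, IER3 and KLF6 by 1.70- to 1.73-fold. KLF6 was the member that nelfinavir and ISRIB moved in opposite directions on top of bortezomib, and KLF10 did not pass the test in any comparison. In RNA from whole cultures, fewer cells with a transcript and less of it per cell cannot be told apart.

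**Figure D1:**
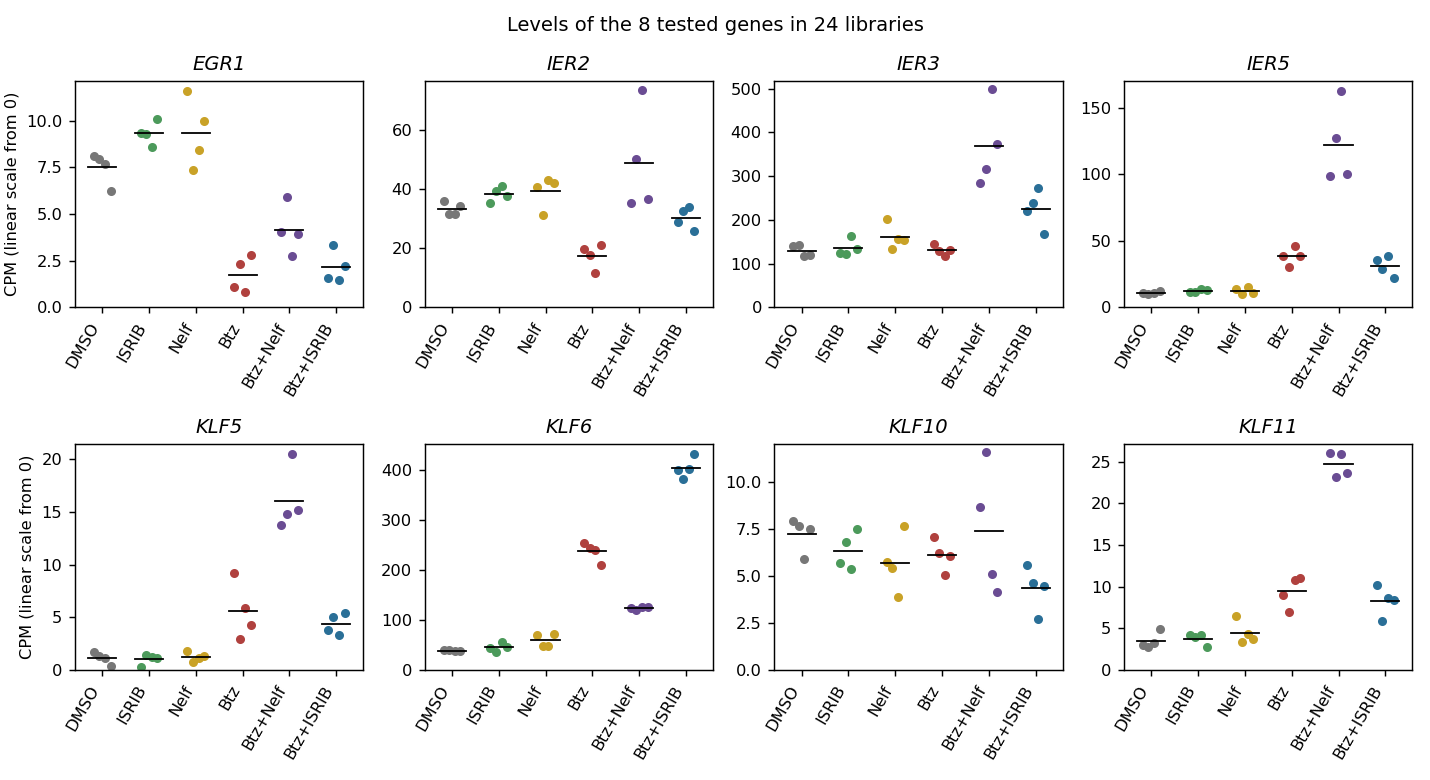
Level of each tested gene (CPM, linear axis from 0) in the 24 libraries. Points are libraries, coloured by group, and the black bar is the mean of 4. KLF6 is highest in Btz+ISRIB (382 to 434 CPM), whereas IER3, IER5, KLF5 and KLF11 are highest in Btz+Nelf, above every library of the other groups.

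To relate the members that moved together to the DNA in front of them, the 250 bases before the annotated start were taken from RefSeq promoter windows (GRCh38.p14) and placed on GRCh37 by exact match. They comprised 10 windows for 8 of the listed genes and none for IER3 and KLF10. KLF5 and KLF11 had 2 windows each, and the second is shown, which lies before a start inside the gene coordinates given below. The first window of KLF5, directly before those coordinates, held none of the motifs searched. That of KLF11 held GGGCGG alone, and 180 of its 250 bases lie in an annotated exon. Windows of the 3 genes raised stepwise by bortezomib and by nelfinavir (IER5, KLF5, KLF11), of EGR1, which bortezomib lowered, and of KLF6, which the co-treatments moved apart, are shown 5′ to 3′ on the strand of the gene. Bases that belong to an annotated exon of the gene were left out of the printed sequences, which shortened KLF6 to 178 and KLF11 to 204 bases. Capitals mark the CArG box in EGR1, GAANNTTC and CCAAT in IER5, CCAAT and GGGCGG in KLF5 and KLF6, and TGACGTCA in KLF11, each on either strand. Positions are counted back from the RefSeq start.
EGR1 (chr5:137800918-137801167, + strand): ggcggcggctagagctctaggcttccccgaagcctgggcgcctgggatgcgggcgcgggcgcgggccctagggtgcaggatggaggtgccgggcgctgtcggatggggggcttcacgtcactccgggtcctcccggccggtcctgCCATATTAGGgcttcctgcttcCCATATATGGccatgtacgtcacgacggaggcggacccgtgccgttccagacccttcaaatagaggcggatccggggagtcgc
IER5 (chr1:181057586-181057835, + strand): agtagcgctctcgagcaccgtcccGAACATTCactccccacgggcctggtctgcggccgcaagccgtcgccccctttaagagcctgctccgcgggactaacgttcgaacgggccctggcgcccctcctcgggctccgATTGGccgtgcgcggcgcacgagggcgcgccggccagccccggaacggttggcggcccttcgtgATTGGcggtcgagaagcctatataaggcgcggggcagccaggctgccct
KLF5 (chr13:73632893-73633142, + strand): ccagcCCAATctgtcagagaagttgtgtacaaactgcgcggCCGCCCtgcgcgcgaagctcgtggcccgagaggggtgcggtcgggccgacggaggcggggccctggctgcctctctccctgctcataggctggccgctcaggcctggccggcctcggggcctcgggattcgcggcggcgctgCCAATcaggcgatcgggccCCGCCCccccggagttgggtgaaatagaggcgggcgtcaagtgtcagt
KLF11 (chr2:10184098-10184301, + strand): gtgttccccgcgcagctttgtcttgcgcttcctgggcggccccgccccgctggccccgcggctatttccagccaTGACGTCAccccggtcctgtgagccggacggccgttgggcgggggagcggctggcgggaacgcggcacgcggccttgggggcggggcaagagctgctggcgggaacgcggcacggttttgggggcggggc
KLF6 (chr10:3827474-3827651, - strand): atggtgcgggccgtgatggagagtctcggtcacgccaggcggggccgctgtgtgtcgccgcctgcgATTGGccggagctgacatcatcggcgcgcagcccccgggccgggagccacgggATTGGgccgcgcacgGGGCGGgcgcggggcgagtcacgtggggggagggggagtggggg

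The CArG box, the element bound by serum response factor, was found in EGR1 alone among the member windows, at positions -105 to -96 and -83 to -74 before the start. It occurs in 1.16% of all 35116 windows of this length. The cyclic AMP response element TGACGTCA, a site for CREB and ATF proteins, was found in KLF11 alone, at -176 to -169, against 1.65% of all windows. CGTCA, contained in that element, was found in 5 of the 10 member windows, those of EGR1, IER2, KLF4, KLF5 and KLF11 (21.2% of all windows). GAANNTTC, a pair of the inverted units from which heat shock elements are built, was found in IER5 alone, at -226 to -219 (5.78% of all windows), and the reverse pair TTCNNGAA in no member window (6.62%). TGATGNAA, a C/EBP-ATF composite element, and the AP-1 element TGANTCA were in no member window, against 3.14% and 6.57% of all windows. CCAAT was found in 4 of the 10 member windows, those of IER5, KLF5, KLF6 and KLF9, which is near the 32% of all windows. GGGCGG, the GC box that KLF and SP proteins bind, was in 6 of the 10, against 42.6% of all windows. These belonged to IER2, KLF4, KLF5, KLF6 and, with both its windows, KLF11. All motifs were searched on both strands. These matches describe the letters of the windows and were not tested for binding.

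EGR1, on chromosome 5 (GRCh37 chr5:137801168-137804992, plus strand), had few counts with bortezomib. The DMSO libraries held 8.13, 7.94, 7.70 and 6.25 CPM. In Btz the values were 1.07, 2.33, 0.845 and 2.81 CPM, from 34 counts in all 4 libraries together. Every Btz library thus lay below every DMSO library. The difference was -2.07 ± 0.31 on the log2 scale (± SE, edgeR adjusted p = 1.14e-06). With nelfinavir added the libraries held 4.02, 5.90, 2.75 and 3.94 CPM, a rise of 1.21 ± 0.34 over Btz (edgeR adjusted p = 0.00796). The lowest Btz+Nelf library was below the highest Btz library, and all of them remained below the lowest DMSO library. This rise kept its size but missed the threshold when only those groups were modelled (edgeR adjusted p = 0.0965). With ISRIB added the level was 2.15 ± 0.87 CPM, and the difference from Btz of 0.28 had a 95% interval from -0.50 to 1.06.

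IER2 (chr19:13261225-13265725, plus strand) fell with bortezomib from 33.3 ± 2.2 to 17.5 ± 4.1 CPM, with no overlap between the libraries. The log2 change was -0.93 ± 0.18 (edgeR adjusted p = 6.13e-05). Both co-treatments were above Btz. The Btz+Nelf libraries held 35.1, 50.2, 73.3 and 36.4 CPM, and the Btz+ISRIB libraries 28.7, 32.7, 33.9 and 25.7 CPM. IER2 was thus above all Btz libraries in both, and its DMSO range of 31.4 to 36.0 CPM overlapped with each. The rises over Btz were 1.48 ± 0.18 with nelfinavir (edgeR adjusted p = 1.86e-07) and 0.79 ± 0.19 with ISRIB (edgeR adjusted p = 0.00431). Antisense transcripts without a row of their own overlap IER2 by 662 and 1123 bases. Since the strand setting of the counting is not known, their reads and those of IER2 cannot be told apart.

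IER3 (chr6:30710976-30712325, minus strand) was the most counted IER gene, with 27237 counts over the 24 libraries. With bortezomib alone its level was 131 ± 10 CPM, against 130 ± 13 CPM in DMSO. The 95% interval of that log2 difference ran from -0.28 to 0.31. Nelfinavir on top of bortezomib gave 285, 316, 498 and 374 CPM. All of these were above every other library of the series, and the rise over Btz was 1.5 ± 0.15 (edgeR adjusted p = 1.69e-09). ISRIB on top of bortezomib gave 220, 238, 274 and 167 CPM, also above all Btz libraries, with a rise of 0.78 ± 0.15 (edgeR adjusted p = 2.97e-04). The antisense transcripts IER3-AS1 and HCG20 overlap the gene. They had 95 and 12 counts in all 24 libraries, and since the strand setting of the counting is not known, reads of the gene and of these partners cannot be told apart.

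IER5 (chr1:181057836-181062036, plus strand) is a single-exon gene known as a target of heat shock factor 1. Its level rose from 10.9 ± 0.9 CPM in DMSO to 38.4 ± 6.5 CPM in Btz, a log2 change of 1.81 ± 0.18 (edgeR adjusted p = 2.04e-10). With nelfinavir it reached 98.7, 127, 162 and 100 CPM. The lowest of these was more than any Btz library, the highest of which held 46.1 CPM. The further rise was 1.67 ± 0.16 (edgeR adjusted p = 1.43e-09). With ISRIB the level was 31.4 ± 7.3 CPM, and the difference from Btz of -0.28 had a 95% interval from -0.63 to 0.06.

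KLF5 (chr13:73629114-73651679, plus strand), a factor of proliferating epithelia, was near the lower limit of the data without bortezomib, with 36 counts over the DMSO libraries. It was at 1.13 ± 0.57 CPM in DMSO and at 9.20, 2.91, 5.91 and 4.32 CPM in Btz. All Btz libraries were higher, by 2.27 ± 0.40 on the log2 scale (edgeR adjusted p = 1.39e-05). Nelfinavir raised it further to 13.7, 14.8, 20.4 and 15.2 CPM, by 1.52 ± 0.33 (edgeR adjusted p = 6.73e-04). In Btz+ISRIB it was at 4.40 ± 0.98 CPM, within the range of the Btz libraries.

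KLF6 (chr10:3818188-3827473, minus strand), known from the activation of hepatic stellate cells, was the member with the largest bortezomib response on the log2 scale. The DMSO libraries held 40.4, 39.8, 37.4 and 39.3 CPM. The Btz libraries held 255, 245, 241 and 210 CPM. This 6.05-fold rise corresponds to 2.60 ± 0.12 (edgeR adjusted p = 1.38e-18). Nelfinavir on top of bortezomib brought the level down to 124, 121, 127 and 126 CPM, a change of -0.93 ± 0.11 (edgeR adjusted p = 1.22e-07). ISRIB on top of bortezomib brought it up to 400, 382, 403 and 434 CPM, a change of 0.77 ± 0.11 (edgeR adjusted p = 8.14e-06). The 3 bortezomib groups did not overlap with each other or with the groups without bortezomib. Nelfinavir alone had the opposite direction to nelfinavir with bortezomib: 70.4, 47.8, 48.7 and 72.8 CPM, above all DMSO libraries, with a change of 0.61 ± 0.12 (edgeR adjusted p = 2.59e-04).

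KLF10 (chr8:103661012-103667953, minus strand) and KLF11 (chr2:10182976-10194963, plus strand) are the TGF-beta-inducible repressors TIEG1 and TIEG2, which recruit the SIN3A corepressor. KLF11 passed the test with bortezomib and with nelfinavir added, and KLF10 passed neither. KLF11 rose from 3.47 ± 0.98 CPM in DMSO to 9.44 ± 1.87 CPM in Btz, by 1.43 ± 0.24 (edgeR adjusted p = 7.44e-06). With nelfinavir its libraries lay close together at 26, 23.2, 25.9 and 23.7 CPM, a rise of 1.39 ± 0.22 over Btz (edgeR adjusted p = 9.47e-06). In Btz+ISRIB it was at 8.28 ± 1.81 CPM, and the difference from Btz had a 95% interval from -0.67 to 0.29. KLF10 group means lay between 4.34 and 7.37 CPM. Its libraries in Btz+Nelf were split, at 8.67, 11.6, 5.11 and 4.13 CPM. The log2 difference of KLF10 between Btz and DMSO had a 95% interval from -0.81 to 0.31.

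KLF9 (chr9:72999520-73029573, minus strand), a glucocorticoid-responsive and circadian member, had 2 counts in 1 Btz library and 1 count in 1 Btz+ISRIB library. A count of 0 over 4 libraries allows a level of up to 0.0950 CPM in DMSO, 0.0976 CPM in ISRIB, 0.0951 CPM in Nelf and 0.153 CPM in Btz+Nelf, counting error only. Differences of KLF9 between groups were not detectable at this depth.

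The order of the 6 groups differed between members. For IER5 and KLF11, Btz+Nelf was highest, followed by Btz, Btz+ISRIB, Nelf, ISRIB and DMSO. KLF5 had the same order except that DMSO lay above ISRIB. In all 3 the step from Btz+Nelf to Btz separated the libraries, whereas Btz and Btz+ISRIB overlapped, and Nelf, ISRIB and DMSO overlapped with their neighbours among themselves. The step from Btz+ISRIB to Nelf separated the libraries of IER5 and KLF5 and not those of KLF11. For KLF6 the order was Btz+ISRIB, Btz, Btz+Nelf, Nelf, ISRIB and DMSO, and each of the steps down to Nelf separated the libraries. For IER3 it was Btz+Nelf, Btz+ISRIB, Nelf, ISRIB, Btz and DMSO, and no neighbours below the first step were separated. IER2 ran Btz+Nelf, Nelf, ISRIB, DMSO, Btz+ISRIB and Btz, where only the last step separated the libraries. EGR1 ran Nelf, ISRIB, DMSO, Btz+Nelf, Btz+ISRIB and Btz, and DMSO was separated from its neighbours on both sides. The mean of KLF10 was highest in Btz+Nelf and lowest in Btz+ISRIB, and all its neighbours overlapped.

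Some libraries ranked highest or lowest for several members. Btz+Nelf replicate 3 was the highest of its group for IER2, IER3, IER5, KLF5 and KLF6, and the lowest for EGR1. Btz+ISRIB replicate 4 was the lowest of its group for IER2, IER3 and IER5, and the highest for KLF5 and KLF6. It held the highest mitochondrial share of the series, 40.2%. Without Btz+Nelf replicate 3 the log2 rises over Btz were 1.23 for IER2, 1.34 for IER3, 1.52 for IER5 and 1.41 for KLF5. Leaving out any 1 library changed none of the counts of members called in the comparisons of Btz with DMSO, Nelf with DMSO, Btz+Nelf with Btz and Btz+ISRIB with Btz.

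The tested members had a compact gene structure, which the choice by name did not use. All 8 tested members have at most 4 exons, as do 25% of the 12347 tested genes with a transcript model. The limit of 4 is the largest exon number among the members, so all of them meet it by its choice. The median span of the tested members in the genome was 5721.5 bases, against 25374 bases for all 12347 genes. KLF5 spans 18534 bases, and KLF9, which was not tested, spans 30054 bases. The medians that follow leave KLF9 out. Of the 12347 genes, 11153 had a 3′ untranslated region to count, as did all 8 tested members. The pentamer ATTTA, the core of AU-rich elements that shorten the life of transcripts, was counted in the 3′ untranslated regions. IER3 held 6 in 737 bases, the highest density of the members at 8.14 per kb. IER5 held 10 in 3014 bases and KLF6 held 6 in 3543 bases, whereas EGR1 held 1 in 1222 bases and IER2 held 0 in 1053 bases. The median of the members was 2.40 per kb, against 1.73 per kb over all tested genes with such a region.

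The first comparison, bortezomib against DMSO, asked how proteasome inhibition changes the members. Of the 8 tested members, 4 were higher (IER5, KLF5, KLF6, KLF11), 2 were lower (EGR1, IER2) and 2 did not pass (IER3, KLF10), at an edgeR adjusted p under 0.05. Over all tested genes 27.6% were higher and 25.8% lower, so the 6 called members stand against a background of 53.4%. The median log2 change of the members was 0.72, against 0.00 over all genes tested. Scaling by library totals alone shifted all log2 changes of this comparison by a median of -0.50 and gave 1490 genes higher and 6266 lower, against 3498 and 3275. On that scale the 4 raised members were still called higher, and IER3 and KLF10 passed as lower with changes of -0.49 and -0.75.

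**Figure D2:**
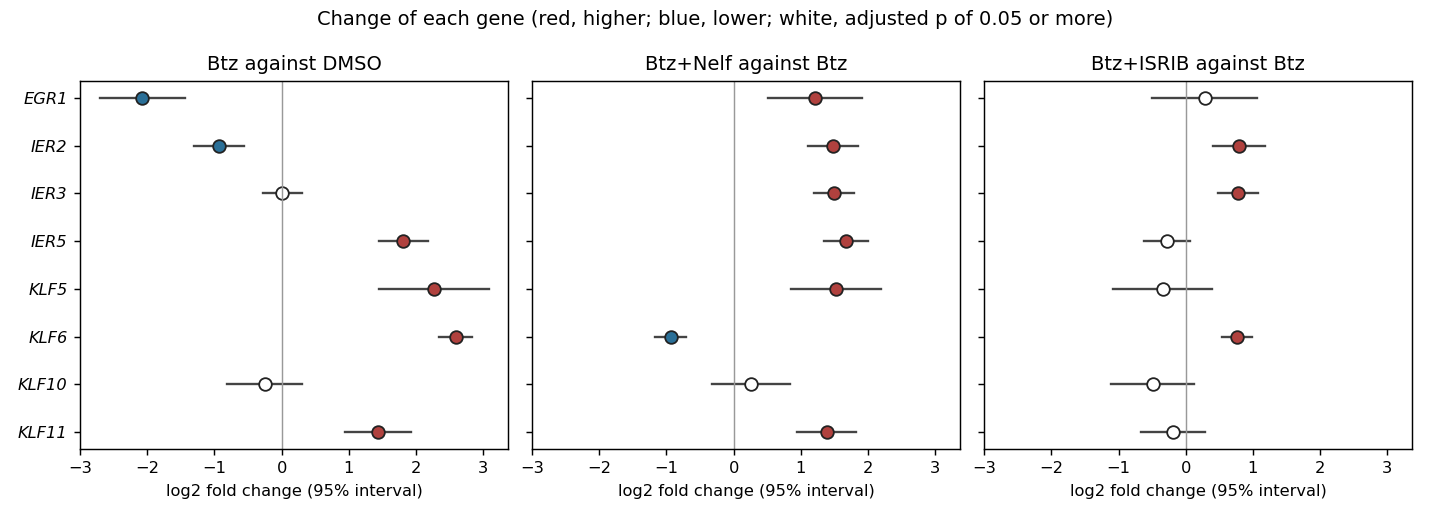
Log2 fold change (x axis) of each tested gene in 3 comparisons, with the 95% interval as a line. Red points were called higher, blue points lower, and white points did not pass (edgeR adjusted p of 0.05 or more). KLF6 is the gene that is blue in Btz+Nelf against Btz (-0.93) and red in Btz+ISRIB against Btz (0.77).

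The co-treatments were compared with bortezomib alone to see which parts of the response to bortezomib change. Adding nelfinavir gave 6 members higher and 1 lower of 8, against 15.6% of all genes higher and 13.4% lower (28.9% in all). The median change of the members was 1.43, and that of all genes was -0.02. Adding ISRIB gave 3 higher and none lower (IER2, IER3, KLF6), against 6.91% and 5.34% of all genes (12.2% in all), with medians of 0.05 for the members and 0.01 for all genes. The same 4 Btz libraries serve both comparisons and the comparison with DMSO. Btz+Nelf was also set against Btz+ISRIB directly, with 6 members higher, 1 lower and 1 not called, against 13.2% of all genes higher and 11.3% lower, 24.4% in all. IER5 differed by 1.95 ± 0.17 (edgeR adjusted p = 8.54e-11), KLF5 by 1.87 ± 0.34 and KLF11 by 1.58 ± 0.22. IER3 differed by 0.71 ± 0.14, and KLF6 by -1.70 ± 0.11 (edgeR adjusted p = 5.25e-13). IER2 differed by 0.69 ± 0.18, or 0.44 without Btz+Nelf replicate 3. EGR1, at 0.93 ± 0.34 (edgeR adjusted p = 0.0410), lost its call when any of Btz+Nelf replicate 2 or Btz+ISRIB replicates 1, 3 and 4 was left out (edgeR adjusted p from 0.0542 to 0.115), without the filter on low counts (0.0510) and with only the groups compared (0.172). KLF10 differed by 0.75 ± 0.30 (edgeR adjusted p = 0.0638) and passed without Btz+ISRIB replicate 1 or Btz+Nelf replicate 3 or 4 (edgeR adjusted p of 0.0376, 0.0317 and 0.0140), by DESeq2 (adjusted p = 0.0392) and with a replicate block (edgeR adjusted p = 0.0472).

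Both compounds were also given without bortezomib. Nelfinavir alone gave 1 member higher, KLF6, and none lower, against 10.4% and 8.84% of all genes (19.2% in all). The other changes ran from -0.35 (KLF10) to 0.36 (KLF11). Nelf replicate 2 was the lowest library of its group for 7 of the 8 members, and without it the change of KLF6 was 0.70. IER3, at 0.31 ± 0.14 (edgeR adjusted p = 0.131), passed when only the Nelf and DMSO libraries were modelled (edgeR adjusted p = 0.0226). ISRIB alone gave no called member, and edgeR's test called 0.0% of all genes, with 703 genes at an unadjusted p under 0.05. DESeq2 called 1 gene higher and 20 lower. Of the members it gave an adjusted p for IER3 and KLF6, which did not pass, and none for EGR1, IER2, IER5, KLF5, KLF10 and KLF11. The largest difference of a member was that of EGR1, 0.32 with a 95% interval from -0.18 to 0.81, and its ISRIB libraries (8.61 to 10.1 CPM) all lay above its DMSO libraries.

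Whether nelfinavir acts differently in the presence of bortezomib was tested as an interaction, the log2 change on adding nelfinavir to bortezomib minus that on adding it to DMSO. It was called for 5 of 8 members, against 9.74% of all genes higher and 10.0% lower (19.7% in all). The change was larger with bortezomib for IER5 (1.46 ± 0.25, edgeR adjusted p = 4.11e-05), IER2 (1.25 ± 0.25, edgeR adjusted p = 4.09e-04), IER3 (1.18 ± 0.20, edgeR adjusted p = 5.79e-05) and KLF11 (1.02 ± 0.33, edgeR adjusted p = 0.0261). For KLF6 it was turned round (-1.54 ± 0.17, edgeR adjusted p = 1.50e-08). The KLF11 call was lost without DMSO replicate 4, Nelf replicate 2 or Nelf replicate 4 (edgeR adjusted p of 0.103, 0.0617 and 0.0579). KLF5, EGR1 and KLF10 had interactions of 1.37 ± 0.57, 0.89 ± 0.42 and 0.61 ± 0.39 that did not pass (edgeR adjusted p of 0.0858, 0.139 and 0.287). KLF5 passed without Btz replicate 1 or DMSO replicate 4 (edgeR adjusted p of 0.0246 and 0.0334) and by DESeq2 (adjusted p = 0.0442), and EGR1 without Btz replicate 4 (edgeR adjusted p = 0.0482). For ISRIB the interaction was called for IER3 (0.72 ± 0.20, edgeR adjusted p = 0.0339) and KLF6 (0.55 ± 0.16, edgeR adjusted p = 0.0446), against 2.93% of all genes higher and 1.89% lower (4.82% in all). Both calls lie close to the threshold. Each of the 16 libraries was left out in turn, and the IER3 call was lost in 11 cases (edgeR adjusted p from 0.0579 to 0.0841) and the KLF6 call in 13 (0.0543 to 0.112). IER3 kept its call without Btz replicate 1, Btz+ISRIB replicate 4, DMSO replicate 3 or 4, or ISRIB replicate 3, and KLF6 without Btz replicate 1, Btz+ISRIB replicate 3 or ISRIB replicate 3.

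**Figure D3:**
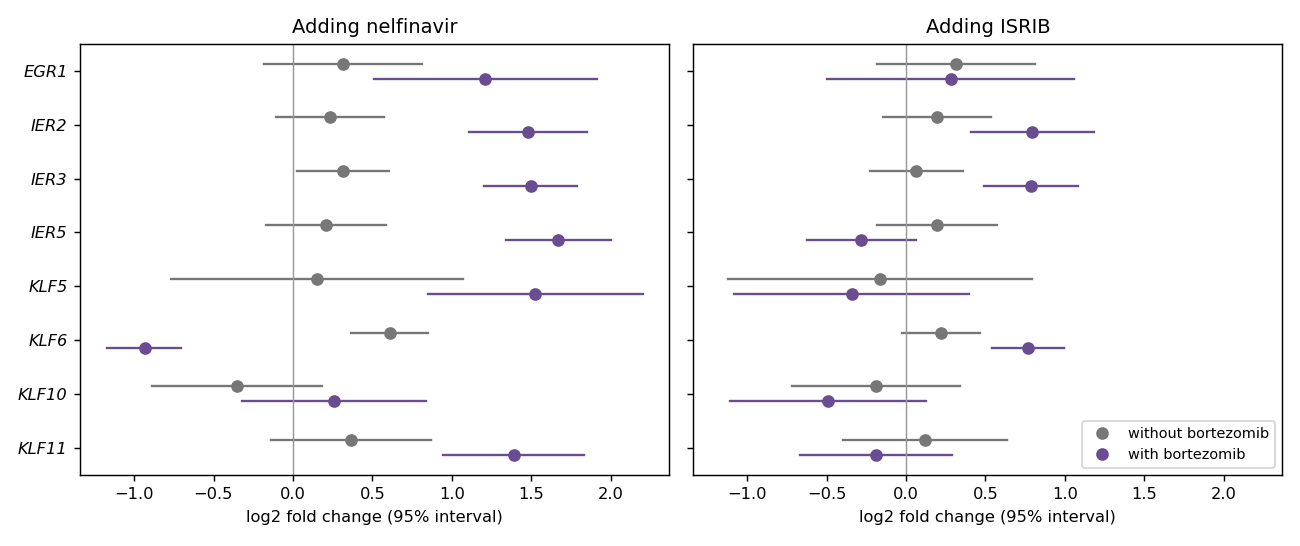
Log2 fold change (x axis, with the 95% interval) on adding nelfinavir (left) or ISRIB (right), without bortezomib (grey, against DMSO) and with it (purple, against Btz). On the left the grey and purple points of KLF6 lie on opposite sides of 0 (0.61 and -0.93), and on the right its points are at 0.22 and 0.77.

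Of 15 other listed EGR, IER5L and KLF genes 8 were tested, and bortezomib raised none and lowered 3, KLF3 (-1.11), EGR4 and KLF13 (-0.51), against 27.6% of all genes higher and 25.8% lower. EGR4 had 27 counts in DMSO and 0 in Btz, at least 5.43-fold lower when 3 counts over the group are set as the limit. Nelfinavir alone raised IER5L, by 1.03. KLF16 was higher than in Btz with nelfinavir (0.56) and with ISRIB (0.72). The median change of the list with bortezomib was -0.57, and it is the same with EGR4 set at that limit.

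Among 24 other immediate early genes, 20 were tested and 13 were higher and 2 lower with bortezomib, against 27.6% and 25.8% of all genes, with a median change of 1.25. Those with the smallest p were the AP-1 and stress factor ATF3 (5.39), JUN (2.45), the pseudokinase TRIB1 (2.53) and the MAP kinase phosphatase DUSP1 (3.91). CTGF (-3.16) and the kinase SGK1 (-1.61) were lower. Adding nelfinavir to bortezomib gave 9 higher and 1 lower, against 15.6% and 13.4% of all genes, with a median of 0.37. Those with the smallest p were CTGF (1.84), GADD45B (1.19), ATF3 (0.61) and MCL1 (0.44). Adding ISRIB gave 8 higher and 1 lower, against 6.91% and 5.34% of all genes, with a median of 0.51. ATF3 was the lower one (-0.95), while TRIB1 (0.67), SGK1 (1.37) and DUSP1 (0.80) were higher. ATF3 and KLF6 thus moved in opposite directions under each co-treatment: ATF3 went from 70.9 CPM in Btz to 109 CPM with nelfinavir and 36.6 CPM with ISRIB, and KLF6 from 238 CPM to 124 and 405 CPM. TRIB1 shared the direction of KLF6 with ISRIB, from 186 to 297 CPM, and was at 185 CPM with nelfinavir.

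**Figure D4:**
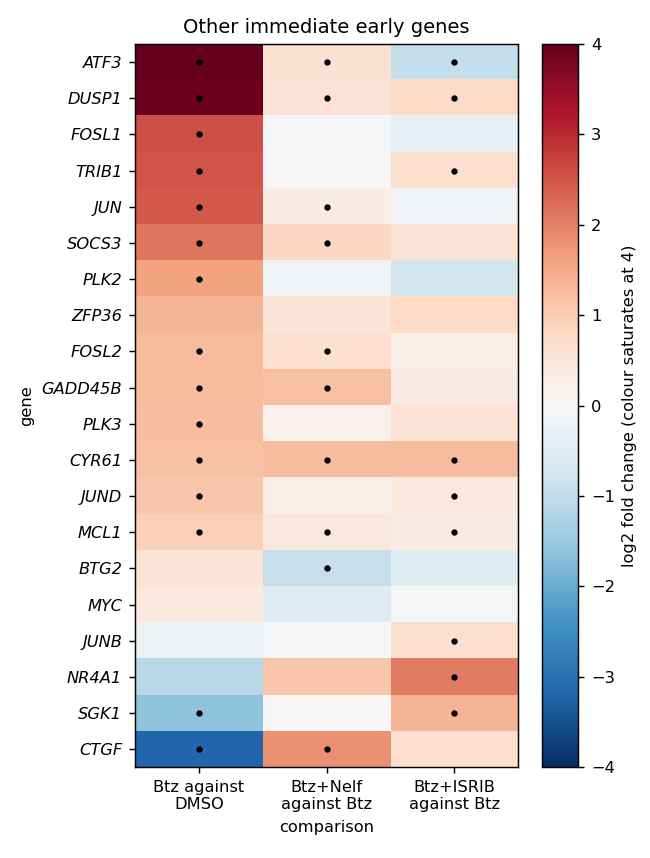
Log2 fold change (colour, saturating at 4 on either side of 0) of 20 other immediate early genes in 3 comparisons. Rows are genes ordered by the bortezomib response and dots mark an edgeR adjusted p under 0.05. With bortezomib 13 genes are raised and 2 lowered, and ATF3 is the gene called lower with ISRIB.

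The factors that act on EGR1 were followed as a list of 8 tested genes, the serum response factor SRF, its partners of the ternary complex and myocardin-related families, and the NAB corepressors of EGR proteins. Bortezomib raised 2 and lowered 4, against 27.6% and 25.8% of all genes. ELK1 (1.89) and MKL1 (0.81) were higher, and NAB1 (-1.56), NAB2 (-1.27), ELK4 (-0.48) and SRF (-0.35) were lower. Adding nelfinavir to bortezomib gave 4 higher and none lower, against 15.6% and 13.4% of all genes: SRF (0.70), ELK4 (0.79), MKL1 (0.96) and NAB1 (0.60). With ISRIB, NAB1 (0.88) and ELK3 (1.13) were higher and none lower, against 6.91% and 5.34% of all genes.

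For KLF9, KLF10 and KLF11, 11 cofactors and regulators were tested. Bortezomib gave 5 higher and 1 lower, 6 of 11, which is near the 53.4% of all genes called. SMAD2 (0.86) and the clock gene PER1 (1.36) were higher, and SMAD7 (-1.43) was lower. TSC22D3, a glucocorticoid-induced gene, was called higher too, with 3 counts over the DMSO libraries and levels of 4.29 CPM in Btz, 10.9 CPM in Nelf and 17.3 CPM in Btz+Nelf. Adding nelfinavir to bortezomib gave 4 higher and 1 lower, against 15.6% and 13.4% of all genes, among them PER2 (1.38), SMAD4 (0.59) and SKIL (-0.41). With ISRIB none were higher and 2 lower, SMAD2 (-0.34) and the glucocorticoid receptor NR3C1 (-0.43), against 6.91% and 5.34% of all genes.

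The genes with the most similar pattern were found by the root mean square difference between the 6 group means of log2 CPM, each gene centred on its own mean, over the 24 libraries. KLF5 and IER5 resembled each other closely (0.207), and KLF11 lay near IER5 (0.274). KLF6 was at least 1.02 from every other member. Over all genes, IER5 was nearest to GPRC5A (0.107) and RP11-309G3.3 (0.166), KLF5 to DEDD2 (0.176) and IER5, KLF11 to BTG3 (0.192) and KDM6A (0.194), and KLF6 to CA12 (0.214) and the lipid phosphatase gene LPIN1 (0.270). IER3 was nearest to MCU (0.0886) and ZBTB5 (0.0951), IER2 to AC010982.1 (0.0786) and TFAP2E (0.101), EGR1 to C2ORF15 (0.142) and ZNF599 (0.150), and KLF10 to NUDT4 (0.0858) and ZFP82 (0.0859). For comparison, the median distance to all tested genes ran from 0.451 for KLF10 to 1.4 for KLF5. The members' own ranges over the group means ran from 0.728 for KLF10 to 3.72 for KLF5. Distances are therefore not comparable between members that varied little and members that varied much.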

How the data were processed

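RNA from HepG2 cells (6 groups, 4 biological replicates each, per the labels) was sequenced by the authors with a 3′ mRNA kit (QuantSeq FWD). Per the labels, reads were trimmed with cutadapt 2.8 and aligned with STAR to hg19/GRCh37. What the authors deposited is 1 table of unnormalized counts, with 18915 genes and 24 libraries. How the counting treated strand, and whether duplicate reads were collapsed, was not stated in the sources read. Limits on small counts therefore cover counting error alone. Reads of IER2, IER3 and KLF11 can likewise not be told from those of transcripts antisense to them.

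Low genes were removed from these counts by filterByExpr, with a least count of 5 and a least total of 25. TMM factors set the scale, and edgeR 4.0.16 (quasi-likelihood test, R 4.3.3) was run in 1 model of all 24 libraries, with Benjamini-Hochberg adjustment over 12685 genes and a threshold of 0.05. The SE and 95% interval of a log2 change were derived from the F statistic. Values measure the spread between replicate cultures. Alternatives were DESeq2's size factors (RLE), library totals alone, mitochondrially encoded genes left out, the DESeq2 1.42.0 test, no filter, only the groups compared, a replicate block and each library left out. Calls were checked on simulated data. No 2 libraries of a group were near-identical, with a chi-square per degree of freedom of at least 2.144 between them.

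All members were named in every comparison, and of each other list up to 4 called genes with the smallest p. For each member the 2 nearest genes were named. CTGF, SGK1, SRF and ELK4 (bortezomib) and the levels of ATF3 and TRIB1 were chosen after their values were seen. Members and lists were chosen with earlier results of these data known. Gene models were taken from GENCODE v44 lifted to GRCh37, and promoter windows from RefSeq. The last 500 bases of 9 members were aligned to all transcripts with BLAST, and alignments of at least 80 bases and 97% identity were found for IER3 with IER3-AS1 and for KLF11 with 1 antisense transcript that has no row.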

Additional observations from a re-analysis of the deposited data

Results flagged for a closer look

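In 48 groups of 4 libraries (8 members in 6 groups), 1 library stood apart from the other 3 of its group by Dixon's criterion: DMSO replicate 4 for IER5, at 12.1 CPM against 10.3 to 10.6 CPM. Chance alone gives about 1 such value in 20 groups.

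The response to a second compound differed with and without bortezomib for these genes, as the interaction on the log2 scale by edgeR's test. With nelfinavir the interaction was 1.25 for IER2, 1.18 for IER3, 1.46 for IER5, 1.02 for KLF11 and -1.54 for KLF6. With ISRIB it was 0.72 for IER3 and 0.55 for KLF6. KLF6 was the member with a called change of either sign on adding nelfinavir, higher without bortezomib (0.61) and lower with it (-0.93). The shares of mitochondrial counts also differed between these groups, with means of 33.8% in Btz, 27.1% in Btz+Nelf and 36.1% in Btz+ISRIB, and their part in these values was not tested beyond leaving those genes out.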

How the results depend on the processing

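For the log2 changes of the 8 members in 8 comparisons, 1005 of 1082 recomputed values had the same direction and the same side of the threshold, 38 lost the threshold, 12 gained it and 27 changed sign. None of the 27 belongs to a change that passed the test with the reported settings. For IER3 with bortezomib against DMSO the sign changed to -0.029 with RLE factors and with DESeq2, -0.034 without mitochondrially encoded genes, -0.063 without the filter, -0.019 with only the groups compared and -0.49 with library totals alone, and leaving out 1 library gave -0.089 to 0.048. Sign changes with 1 library left out arose for EGR1 with Btz+ISRIB against Btz (-0.029 to 0.58) and its ISRIB interaction (-0.34 to 0.26), IER3 with ISRIB alone (-0.037 to 0.12), and KLF5 with nelfinavir alone (-0.14 to 0.45), with ISRIB alone (-0.46 to 0.16), with Btz+ISRIB against Btz (-0.56 to 0.0042) and in its ISRIB interaction (-0.50 to 0.17). With library totals alone 4 members were called lower with bortezomib, in place of 2. Nelfinavir alone gave 2 members higher without the filter or with only the groups compared, in place of 1. The ISRIB interaction, with 2 members called higher, gave 1 with RLE factors, 1 without mitochondrially encoded genes, 0 with library totals alone and 0 to 2 with 1 library left out. The cause of these changes was not tested.

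Replicate numbers are shared between the groups, and the labels do not say whether a number marks a shared culture. Deviations from the group means correlated above 0.1 in 21 of the 60 same-numbered pairs and in 38 of the 180 remaining ones. These counts do not settle whether the cultures were paired. With a replicate block, bortezomib against DMSO still gave 4 members higher and 2 lower, Btz+Nelf against Btz 6 and 1, and Btz+ISRIB against Btz 3 and 0, and Btz+Nelf against Btz+ISRIB gave 7 members higher in place of 6.

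With only the groups compared, the count of all genes called lower with nelfinavir alone went from 1121 to 1948, by more than 1.5 times. The counts in both directions did so for the co-treatments, to 1284 higher and 962 lower for Btz+Nelf against Btz, 510 and 357 for Btz+ISRIB against Btz, and 985 and 755 between the co-treatments. With library totals alone Btz+ISRIB against Btz gave 650 and 955 and the ISRIB interaction 278 and 285, in place of 876 and 677 and of 372 and 240. With DESeq2 the ISRIB interaction gave 487 and 436. ISRIB alone, with 0 genes called, gave 5 and 34 without the filter and 4 and 76 with only the groups compared. EGR1 and KLF5 had 34 and 31 counts in their lowest group, which limits what their intervals can resolve.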
